A study of Mus musculus with 12 samples.

Results

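The genes of the mitochondrial respiratory chain and ATP synthase were examined in mouse dendritic cells (DCs) and their bone marrow progenitors. Members were all genes whose annotated symbol begins with Nduf, Uqcr, Sdha to Sdhd, Cox4i, Cox5, Cox6, Cox7, Cox8 or Atp5, and 93 of the 22180 genes measured by a probe set with 1 symbol met this rule. The choice used symbols and not measured values. By role, 32 members are subunits of complex I, 4 of complex II, 7 of complex III, 10 of complex IV and 17 of ATP synthase. A further 13 are assembly factors, counting the supercomplex factor Cox7a2l, 8 are isoforms restricted to certain tissues, and 2 are pseudogenes. Another 9 symbols, among them Cox6c and Uqcr10, appeared only on probe sets that list several symbols and were not analysed here.

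RNA was measured on 12 Affymetrix whole-transcript arrays from 5 populations sorted to over 95% purity. All cells came from untreated C57Bl/6 mice of the genotype Zbtb46GFP/+, which carry a GFP reporter allele at Zbtb46, so no population without the reporter allele serves as a control. Bone marrow gave the CDP (common DC progenitor, n = 3), the pre-CD8 progenitor (n = 2) and the pre-CD4 progenitor (n = 2). The CD24 DC (n = 3) and the CD172a DC (n = 2) came from spleen. The series text gives 8 to 10 littermates as the source and no age, and it does not say whether the arrays of a population came from separate pools, so the tests measure the spread between these arrays, which may be technical. Bones were crushed with mortar and pestle, whereas spleens went through enzyme digestion (collagenase B, DNase), so that organ, tissue handling and stage cannot be told apart in any comparison of a spleen DC with a progenitor.

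The respiratory chain moves electrons from NADH through complex I, and from succinate through complex II, to complex III, cytochrome c and complex IV, where oxygen is reduced. Complexes I, III and IV pump protons, and ATP synthase uses the proton gradient to make ATP. Complex II is also succinate dehydrogenase of the citric acid cycle and is encoded by nuclear genes alone, whereas the other complexes mix nuclear subunits with subunits from mitochondrial DNA. The nuclear genes are known targets of NRF1 and of the ETS factor GABPA, and DCs are known to shift toward glycolysis when activated.

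Transcripts of proteins used in the sorting gates were compared with the labels. Group means of Csf1r, the receptor CD115 used to gate CDP and pre-CD4 cells, were 9.14 in CDP, 6.53 in pre-CD8, 8.80 in pre-CD4, 5.69 in CD24 DC and 8.12 in CD172a DC. Sirpa, which encodes CD172a, averaged 5.85 in CD24 DC and 9.35 in CD172a DC. H2-Ab1, a chain of MHC class II, averaged 12.19 in CD24 DC, whose label reads MHCII negative. Kit, which encodes CD117, averaged 9.71 in CD24 DC and 9.70 in CD172a DC, above its 5.95 in pre-CD4 cells.

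Promoters were read from RefSeq for GRCm38.p6, and 76 of the 93 members had at least 1 window of 250 bases before to 50 bases after the annotated start, 81 windows in all. The NRF1 motif, searched on both strands, was present in 24.7% of the member windows, against 4.6% of all 32851 windows. The ETS motif CCGGAAG, searched on both strands, was present in 27.2% of the member windows, against 8.9% of all windows. The YY1 motif AAGATGGC, on both strands, was present in 12.3%, against 2.7%. Median GC content was 58.7% in member windows and 52.7% in all windows. The median number of CpG dinucleotides was 20 in member windows and 7 in all windows. The motif shares were not compared with windows of like CpG content. None of the 4 windows of tissue-restricted isoforms held the NRF1, ETS or YY1 motif. The 250 bases before the start are printed for 5 members on which the results turn, 4 that were lower in CD172a DC and carry the motifs, and the restricted isoform Cox6b2, which was lower in CD172a DC too and carries neither the NRF1 nor the ETS motif in these bases. Capitals mark NRF1 and ETS motif matches on either strand, and each sequence reads 5′ to 3′ on the strand of its gene.
Sdha, chr13:74350241-74350490, minus strand: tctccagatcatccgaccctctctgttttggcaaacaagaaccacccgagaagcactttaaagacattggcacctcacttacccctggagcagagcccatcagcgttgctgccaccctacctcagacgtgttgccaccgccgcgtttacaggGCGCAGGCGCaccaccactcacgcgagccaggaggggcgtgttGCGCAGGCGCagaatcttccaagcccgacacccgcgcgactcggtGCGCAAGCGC
Sdhd, chr9:50603850-50604099, minus strand: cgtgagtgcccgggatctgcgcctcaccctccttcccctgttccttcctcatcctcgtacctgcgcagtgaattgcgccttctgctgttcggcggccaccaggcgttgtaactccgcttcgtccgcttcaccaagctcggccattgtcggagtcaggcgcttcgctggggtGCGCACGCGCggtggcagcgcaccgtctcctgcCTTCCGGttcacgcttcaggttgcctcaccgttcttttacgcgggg
Atp5h, chr11:115419920-115420169, minus strand: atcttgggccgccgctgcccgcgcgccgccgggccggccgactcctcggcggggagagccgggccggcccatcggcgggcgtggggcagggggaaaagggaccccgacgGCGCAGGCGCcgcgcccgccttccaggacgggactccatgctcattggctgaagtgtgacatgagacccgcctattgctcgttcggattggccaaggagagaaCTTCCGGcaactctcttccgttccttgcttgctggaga
Cox6a1, chr5:115348959-115349208, minus strand: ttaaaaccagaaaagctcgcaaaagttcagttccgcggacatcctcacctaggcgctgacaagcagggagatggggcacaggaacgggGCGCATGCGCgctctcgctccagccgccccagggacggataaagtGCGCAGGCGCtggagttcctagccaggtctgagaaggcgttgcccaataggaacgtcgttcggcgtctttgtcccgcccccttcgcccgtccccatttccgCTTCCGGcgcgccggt
Cox6b2, chr7:4753095-4753344, minus strand: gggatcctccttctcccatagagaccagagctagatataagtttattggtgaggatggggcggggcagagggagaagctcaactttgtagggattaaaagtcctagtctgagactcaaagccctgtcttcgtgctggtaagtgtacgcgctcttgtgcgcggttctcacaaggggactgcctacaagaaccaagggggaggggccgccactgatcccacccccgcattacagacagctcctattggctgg
In these bases Sdha held 3 NRF1 matches, Cox6a1 held 2 and an ETS match, and Sdhd and Atp5h held 1 of each. A match describes the letters of the window and does not show that a factor binds there.

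Expression is given as the deposited log2 value of 1 probe set per gene, so a difference of 1 is a doubling, and levels of different genes are not compared. Across the members, the median of the group means was 8.23 in CDP, 8.05 in pre-CD8, 7.96 in pre-CD4, 7.61 in CD24 DC and 7.27 in CD172a DC. CDP had the highest of the 5 group means for 48 of the 93 members (51.6%), against 29.9% of the 13308 genes whose mean lay above the 40th percentile. CD172a DC had the lowest for 57 members (61.3%), against 29.6% of those genes. Complex II was uniform in this, since all 4 subunits were highest in CDP and lowest in CD172a DC. CDP was highest for 16 of 32 complex I, 6 of 7 complex III, 6 of 10 complex IV and 8 of 17 ATP synthase subunits. In bulk RNA, fewer cells of a type and less RNA per cell cannot be told apart.

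The order of the arrays ran with the width of their value distributions. The interquartile range of all values on an array was 2.67 to 2.86 in CDP, 2.48 to 2.70 in pre-CD8, 2.60 to 2.74 in pre-CD4, 2.10 to 2.59 in CD24 DC and 2.17 to 2.35 in CD172a DC. The members lie high in the distribution, with a median percentile on the array between 85.5 and 93.3. There, lower log2 values can accompany a narrower distribution, and which follows from which was not tested. Values from a fit with the interquartile range as a covariate are given beside the member differences below that it moved across the threshold. They are also given beside the medians that it turned. For single genes outside the family the values of this fit were not kept. The share of all genes called in this fit is not given beside its member counts. Because the width also differed between populations, the covariate can remove part of a population difference, and the 2 cannot be told apart.

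**Figure D1:**
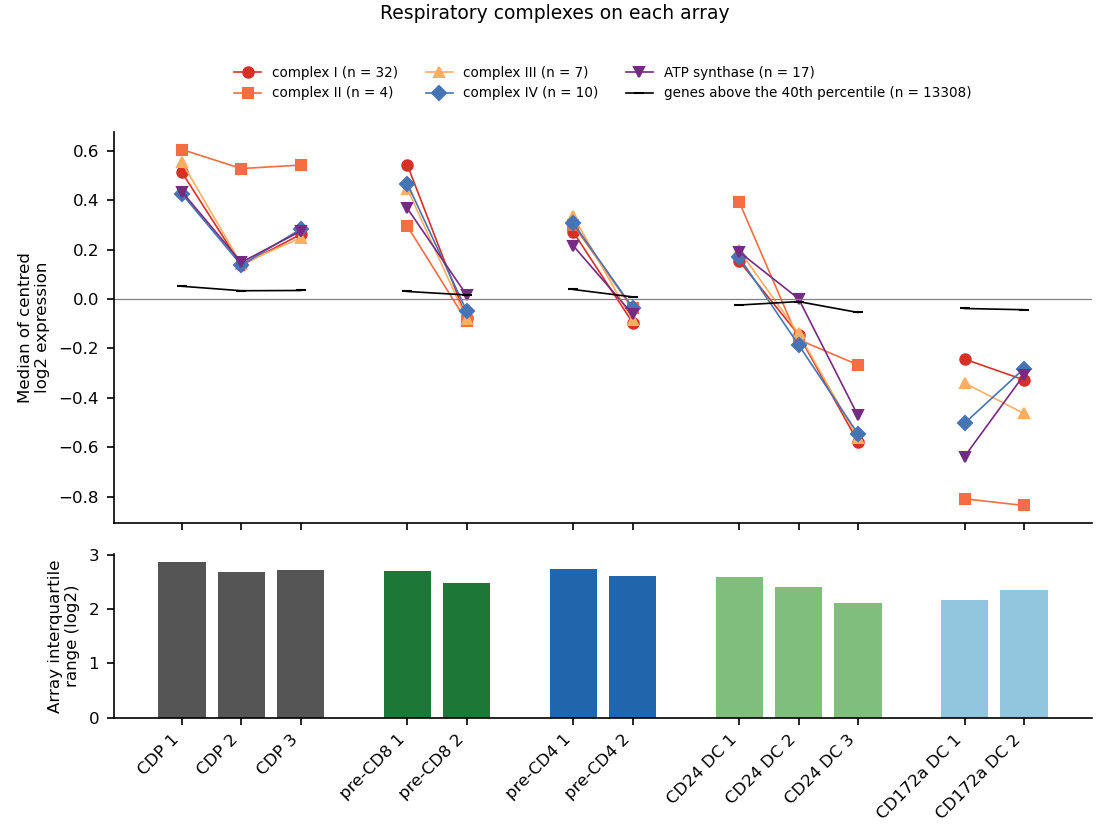
Upper panel, median over the subunits of each complex of the log2 value centred on the gene's mean over 12 arrays, per array, with lines joining arrays of a population; lower panel, interquartile range of all log2 values of the array. Complex II lies at 0.53 to 0.61 on the CDP arrays and at -0.84 to -0.81 on the CD172a DC arrays, and array 1 lies above arrays 2 and 3 in CDP, pre-CD8, pre-CD4 and CD24 DC for every complex drawn.

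Across the 5 populations, 24 of the 93 members changed by limma's F test at an adjusted p under 0.05 (25.8%), close to the 24% of all genes called. Among genes above the 40th percentile the shares were 29 of 87 members and 41.4% of all genes, so differences between these populations were not more frequent among members than among other bright genes. The smallest adjusted p-values belonged to Cox6a2 (0.000391), Atp5b (0.000502), Ndufa9 (0.000582), Cox6b2 (0.00062), Atp5a1 (0.0011), Sdhd (0.00131), Sdha (0.00373), Sdhc (0.00419), Ndufs1 (0.00458) and Ndufa10 (0.00627). They include 3 of the 4 complex II subunits and both catalytic-head chains of ATP synthase, Atp5a1 and Atp5b. The other 14 called were Atp5h, Atp5d and Atp5g3 of ATP synthase, Ndufa11, Ndufb6, Ndufb11, Ndufs8 and Ndufv1 of complex I, Uqcrc1 of complex III, Cox4i1, Cox5b and Ndufa4 of complex IV, and the assembly factors Ndufaf5 and Ndufaf6. Those of Cox5b and Atp5d ended with the mean of a gene's probe sets. The second probe set of Cox5b was not lower in CD172a DC (7.72 and 6.89) than in pre-CD4 (7.09 and 6.81). Without CD172a DC array 1 the count was 12, and with the interquartile range as a covariate it was 10, with 8 of the 24 among them.

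Complex II was lower in CD172a DC than in its marrow counterpart, the pre-CD4 progenitor. Sdha, the flavoprotein that oxidises succinate, had 7.97 and 7.94 on the CD172a DC arrays, against 8.88 and 8.68 on the pre-CD4 arrays. Sdhc, a membrane anchor of the complex, had 6.23 and 5.98 on the CD172a DC arrays, against 8.00 and 7.15 on the pre-CD4 arrays. Sdhd, the other membrane anchor, had 6.46 and 6.44 on the CD172a DC arrays, against 7.70 and 7.32 on the pre-CD4 arrays. For these genes both CD172a DC arrays lay close together. The differences were -0.82 ± 0.23 for Sdha, -1.47 ± 0.40 for Sdhc and -1.06 ± 0.21 for Sdhd (limma estimate ± SE, n = 2 each), with adjusted p-values of 0.0308, 0.027 and 0.00508. Sdhb, the iron-sulfur subunit, had 7.17 and 7.29 on the CD172a DC arrays, against 7.88 and 7.59 on the pre-CD4 arrays, and its difference of -0.50 ± 0.25 did not pass the test (adjusted p = 0.222). With the interquartile range as a covariate none of the 4 passed: the differences were -0.50 for Sdha (adjusted p = 0.343), -0.52 for Sdhc (0.528), -0.80 for Sdhd (0.0849) and 0.03 for Sdhb (0.97). Without pre-CD4 array 1 all 3 calls ended, that of Sdhc ended also without either CD172a DC array, and that of Sdha without either CD172a DC array, pre-CD4 array 2 or CDP array 3 (adjusted p up to 0.223 for Sdha, 0.282 for Sdhc and 0.082 for Sdhd). The median of the 4 subunits was -0.94 (-0.51 with the covariate), against -0.48 over all members and 0.09 over all genes. The 4 complex II assembly factors, which add flavin and iron-sulfur cofactors or chaperone subunits, had a median of 0.07 with 0 called.

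Between the 2 spleen DCs, Sdhd was the 1 complex II subunit that passed the test. Sdhd had 7.74, 7.52 and 7.55 on the CD24 DC arrays, against 6.46 and 6.44 on the CD172a DC arrays. The lowest CD24 DC array lay more than 1 log2 unit above both CD172a DC arrays, and the difference was 1.16 ± 0.20 (n = 3 and 2, limma adjusted p = 0.00296). Sdha had 9.09, 8.49 and 8.52 on the CD24 DC arrays, against 7.97 and 7.94 on the CD172a DC arrays, a difference of 0.75 ± 0.21 that missed the threshold (adjusted p = 0.057) and passed it with the interquartile range as a covariate (0.66, adjusted p = 0.0418). Sdhc had 7.79, 6.89 and 6.53 on the CD24 DC arrays, against 6.23 and 5.98 on the CD172a DC arrays, and differed by 0.97 ± 0.36 (adjusted p = 0.178). Sdhb had 7.71, 7.46 and 7.22 on the CD24 DC arrays, against 7.17 and 7.29 on the CD172a DC arrays, with overlapping groups (difference 0.23 ± 0.23, adjusted p = 0.755). The call for Sdhd in this comparison held on leaving out each of the 12 arrays in turn, with adjusted p-values up to 0.0333, and under the 9 other planned settings, with values up to 0.0309.

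In both committed progenitors the group means of all 4 complex II subunits lay below CDP and nearly level with each other, and 0 passed the test. The groups overlapped for Sdhb, with 7.94 and 7.55 in pre-CD8, 7.88 and 7.59 in pre-CD4, and 8.15, 7.64 and 7.72 in CDP. Sdha had 8.66 and 8.55 in pre-CD8, 8.88 and 8.68 in pre-CD4, and 9.30, 9.34 and 9.30 in CDP. The 3 CDP arrays lay above all 4 arrays of the committed progenitors, yet the differences of -0.71 ± 0.21 for pre-CD8 and -0.54 ± 0.21 for pre-CD4 did not pass the test (adjusted p = 0.0795 and 0.219). The complex II medians were -0.54 for pre-CD8 minus CDP and -0.44 for pre-CD4 minus CDP, against -0.09 and -0.19 over all members, the first of which turned to 0.10 with the interquartile range as a covariate. Under every planned setting the complex II median kept its sign in both, from -0.65 to -0.37 and from -0.59 to -0.27.

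Over the whole family, 15 members fell in CD172a DC relative to pre-CD4 and none rose. This is 16.1% of the members called, against 12.7% of all genes called in either direction and 8.02% called lower. Among genes above the 40th percentile the shares called in either direction were closer, with 22 of 87 members (25.3%) against 23.8% of genes. The share of these genes called lower is not given here. Of the 93 members, 79 had a difference below 0, and the median was -0.48 (0.08 with the interquartile range as a covariate). By complex, 4 of 32 complex I, 3 of 4 complex II, 0 of 7 complex III, 2 of 10 complex IV, 4 of 17 ATP synthase and 2 of 8 restricted-isoform members were called, and 0 of 13 assembly factors.

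In ATP synthase the 5 subunits of F1, its catalytic head and central stalk, had a median of -0.88, and 3 of them fell. Atp5a1, the alpha chain, had 9.16 and 9.48 in CD172a DC, against 10.19 and 10.20 in pre-CD4 (difference -0.88 ± 0.21, adjusted p = 0.014). Atp5b, the catalytic beta chain, had 8.58 and 9.15 in CD172a DC, against 10.48 and 10.11 in pre-CD4 (difference -1.43 ± 0.27, adjusted p = 0.00314). For both chains the CD172a DC arrays lay below all the other arrays of the series. The 12 subunits of the membrane part and peripheral stalk had a median of -0.32, and Atp5h, the d subunit of the peripheral stalk, was the 1 called there. Atp5h had 6.25 and 8.77 in CD172a DC, against 10.60 and 10.21 in pre-CD4 (difference -2.89 ± 0.59, adjusted p = 0.00549), so its CD172a DC arrays stood far apart. Atp5d, the delta chain of the central stalk, had 7.87 and 9.80 in CD172a DC, against 10.81 and 10.51 in pre-CD4 (difference -1.82 ± 0.50, adjusted p = 0.0294). With the interquartile range as a covariate these 4 calls ended, with differences of -0.78 for Atp5a1 (adjusted p = 0.11), -1.28 for Atp5b (0.0506), -1.53 for Atp5h (0.184) and -0.62 for Atp5d (0.566). The call for Atp5d also ended with the mean of its 2 probe sets. Atp5l, the g subunit of the membrane part, had 12.14 and 11.90 in CD172a DC, against 11.90 and 11.67 in pre-CD4 (difference 0.24 ± 0.23, adjusted p = 0.556).

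In complex I, Ndufa9, a supernumerary subunit where the membrane and matrix arms meet, had 6.07 and 6.97 in CD172a DC, against 8.89 and 8.27 in pre-CD4. Its difference was -2.06 ± 0.34 (adjusted p = 0.00118). Ndufs1 and Ndufs8, core subunits that carry iron-sulfur clusters, differed by -0.84 ± 0.23 and -1.73 ± 0.48 (adjusted p = 0.0299 and 0.0304). Ndufa11, a membrane-arm subunit, had 5.78 and 7.87 in CD172a DC, against 10.14 and 9.07 in pre-CD4, a difference of -2.78 ± 0.62 (adjusted p = 0.00944). With the interquartile range as a covariate the call for Ndufa9 remained, and those for Ndufa11 (-1.26, adjusted p = 0.286), Ndufs1 (-0.40, 0.417) and Ndufs8 (-0.47, 0.61) ended. The 6 core subunits had a median of -0.61 and the 26 supernumerary ones -0.45, and the median of all complex I subunits turned to 0.21 with the covariate. Ndufa10, named by the F test, had 7.44 and 8.12 in CD172a DC, against 8.57 and 8.35 in pre-CD4, and missed the threshold here (difference -0.68 ± 0.24, adjusted p = 0.0883). Ndufa3, a supernumerary subunit, had 9.99 and 9.67 in CD172a DC, against 10.64 and 9.55 in pre-CD4, with overlapping groups (difference -0.27 ± 0.51, adjusted p = 0.772). The supercomplex factor Cox7a2l had 7.60 and 7.87 in CD172a DC, against 8.20 and 7.63 in pre-CD4 (difference -0.19 ± 0.34, adjusted p = 0.76).

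In complex IV, Cox4i1, a subunit that binds ATP as a regulator, had 7.96 and 10.05 in CD172a DC, against 11.11 and 10.49 in pre-CD4 (difference -1.80 ± 0.50, adjusted p = 0.0312). Cox6a1 had 10.07 and 10.54 in CD172a DC, against 11.56 and 11.13 in pre-CD4 (difference -1.04 ± 0.27, adjusted p = 0.0246). Both calls ended with the interquartile range as a covariate, at -0.78 for Cox4i1 (adjusted p = 0.514) and -0.47 for Cox6a1 (0.416). Cox7b did not fall by the probe set used, with 10.87 and 9.86 in CD172a DC, against 9.92 and 9.88 in pre-CD4 (difference 0.47 ± 0.35, adjusted p = 0.42). Its second probe set went the other way, with 4.67 and 4.90 in CD172a DC, against 5.74 and 5.68 in pre-CD4. In complex III, Uqcrc1 of the core had 7.08 and 7.45 in CD172a DC, against 8.50 and 7.83 in pre-CD4, and Uqcrb had 9.58 and 9.18 in CD172a DC, against 9.02 and 9.07 in pre-CD4.

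**Figure D2:**
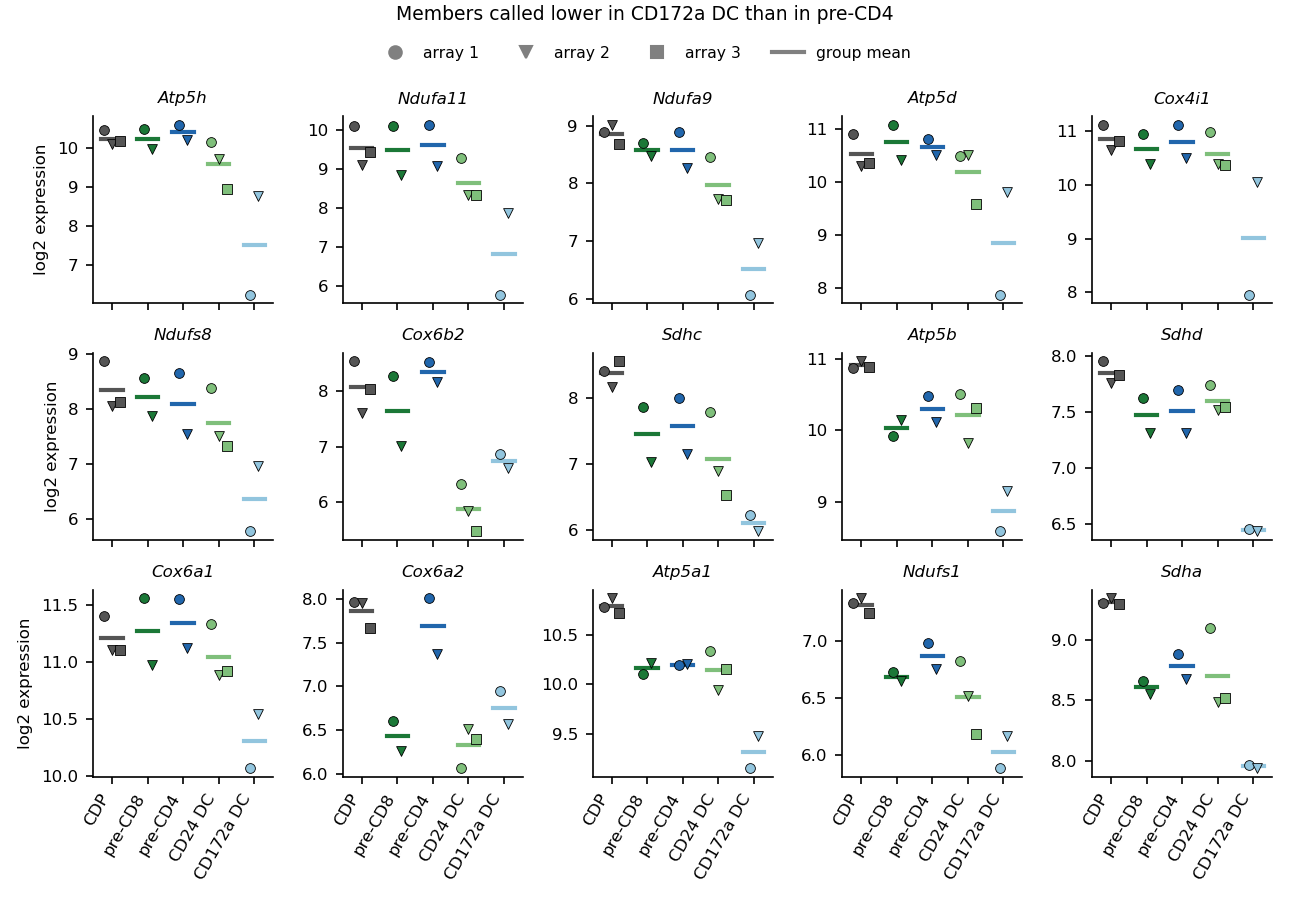
Log2 expression on each array of the 15 members called lower in CD172a DC than in pre-CD4, ordered by size of difference; symbols give the array number and bars the group mean, and the vertical axes differ between genes and do not start at 0. In Atp5h, Ndufa11, Atp5d and Cox4i1 the first CD172a DC array lies about 2 log2 units below the second, while in Sdha, Sdhd and Sdhc the CD172a DC arrays lie close together.

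The count in CD172a DC minus pre-CD4 rested on single arrays. It was 2 without pre-CD4 array 1 (Atp5b and Ndufa9), 4 without CD172a DC array 1 (these and Atp5h and Sdhd), 10 without pre-CD4 array 2, and 19 without CD172a DC array 2, of which 10 were among the original 15. Ndufa9 and Atp5b kept their calls on leaving out each of the 12 arrays, with adjusted p-values up to 0.0231 and 0.0499. With the interquartile range as a covariate the count was 2, with Ndufa9 the 1 shared member (difference -1.40, adjusted p = 0.0386), and the member median turned to 0.08. With arrays equalized in median and interquartile range, 11 were called, 8 of them shared.

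Further measures moved with this comparison, and their part in it was not tested. The mean of 19 proliferation genes was 7.27 to 7.58 on the CD172a DC arrays and 9.33 to 9.35 on the pre-CD4 arrays, and 15 of the 19 fell. The mean of 13 genes induced by tissue dissociation was 9.78 to 10.27 on the CD172a DC arrays and 7.77 to 8.17 on the pre-CD4 arrays, and 10 of the 13 rose. Other mitochondrial and housekeeping sets shifted by similar medians: -0.53 over 71 mitochondrial ribosomal proteins, with 8 called lower, and -0.53 over 49 proteasome genes, with 11 called lower.

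Between the spleen DCs, 5 members rose in CD24 DC relative to CD172a DC and 0 fell, which is 5.38% of members, against 5.59% of all genes in either direction and 3.21% higher. Beside Sdhd they were Atp5h, Ndufa9, Atp5b and Atp5a1. Atp5b had 10.51, 9.82 and 10.32 in CD24 DC, against 8.58 and 9.15 in CD172a DC (difference 1.35 ± 0.24, adjusted p = 0.00474). Ndufa9 had 8.46, 7.73 and 7.71 in CD24 DC, against 6.07 and 6.97 in CD172a DC (difference 1.44 ± 0.31, adjusted p = 0.0127). Atp5a1 differed by 0.82 ± 0.19 (adjusted p = 0.0221) and Atp5h by 2.09 ± 0.54 (adjusted p = 0.0381), and the Atp5h call ended on leaving out any of 8 arrays and with the mean of its 2 probe sets. All 5 F1 subunits had differences above 0, with a median of 1.02, against 0.17 for the 12 membrane and peripheral stalk subunits and 0.22 for all members. Without CD172a DC array 1 the count was 1 (Sdhd), and no member kept a call when the 5 arrays numbered 1 were all left out. With the interquartile range as a covariate the count was 11.

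**Figure D3:**
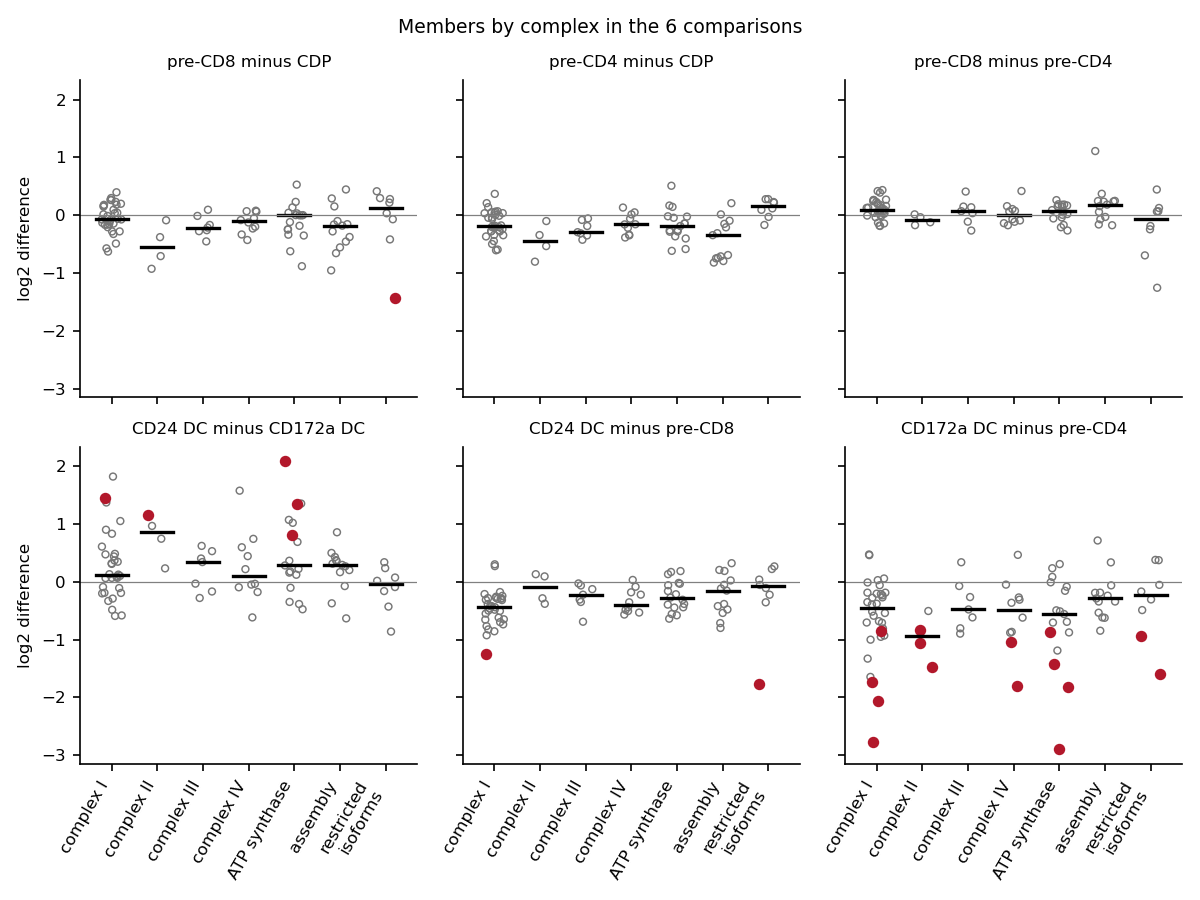
Log2 difference of each member in the 6 comparisons, grouped by complex; filled red points passed limma's test at an adjusted p under 0.05, open points did not, and black bars are medians. Complex II has the lowest median of the 5 complexes in CD172a DC minus pre-CD4 (-0.94) and the highest in CD24 DC minus CD172a DC (0.86), and 2 pseudogenes are not drawn.

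In the cDC1 lineage, 2 members fell in CD24 DC relative to pre-CD8, against 6.31% of all genes called and 3.66% called lower. Cox6b2 is described with the isoforms. Ndufb11, a membrane-arm subunit of complex I, had 6.79, 6.18 and 5.74 in CD24 DC, against 7.83 and 7.13 in pre-CD8 (difference -1.25 ± 0.34, adjusted p = 0.0489), and this call ended on leaving out CD24 DC array 2 or 3, pre-CD8 array 1 or any CDP array (adjusted p up to 0.514). It ended too with quantile normalization, with equalized arrays, with the compared groups alone and with the interquartile range as a covariate (-0.83, adjusted p = 0.198). Of the 93 members, 76 had a difference below 0, with a median of -0.31, or 0.03 with the interquartile range as a covariate. Complex II had a median of -0.09, or 0.21 with the covariate. The proliferation genes averaged 6.63 to 7.68 in CD24 DC and 8.98 to 9.10 in pre-CD8, and the dissociation genes 9.58 to 10.10 in CD24 DC and 7.99 to 8.37 in pre-CD8, and their part in the result was not tested.

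Whether maturation differed between the lineages was tested as the CD24 DC minus pre-CD8 difference less the CD172a DC minus pre-CD4 difference. No member passed (limma, 1.03% of all genes called), and 12 of the 93 had an unadjusted p under 0.05, against 9.75% of all genes. Atp5b came nearest with a difference of 1.61 ± 0.36 (adjusted p = 0.0561), followed by Sdhd with 1.19 ± 0.29 (adjusted p = 0.0791). Atp5b differed by 0.19 ± 0.24 in CD24 DC minus pre-CD8 and by -1.43 ± 0.27 in CD172a DC minus pre-CD4. The complex II median was 1.00, against 0.13 over all members, and with the interquartile range as a covariate these were 0.73 and -0.13.

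At commitment few members passed the test. In pre-CD8 minus CDP, 1 member was called, against 4.77% of all genes, and 9 had an unadjusted p under 0.05, against 15.3% of all genes. In pre-CD4 minus CDP, 0 were called, against 4.54% of all genes, and 10 had an unadjusted p under 0.05, against 14.9% of all genes. In pre-CD8 minus pre-CD4, 0 were called, against 0.703% of all genes, and 2 had an unadjusted p under 0.05, against 5.61% of all genes. The typical standard error was 0.24 for groups of 3 and 2 and 0.27 for groups of 2. Atp5b had 9.92 and 10.14 in pre-CD8, 10.48 and 10.11 in pre-CD4, and 10.88, 10.97 and 10.89 in CDP. The pre-CD8 difference of -0.88 ± 0.24 missed the threshold (adjusted p = 0.06). Ndufaf6, a complex I assembly factor, had 7.23 and 6.60 in pre-CD8, against 6.03 and 5.58 in pre-CD4 (difference 1.11 ± 0.35, adjusted p = 0.346).

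Of the 8 tissue-restricted isoforms, Cox6a2 and Cox6b2 were called. Cox6a2, the heart and skeletal muscle form of subunit VIa, had 7.96, 7.95 and 7.67 in CDP, 6.60 and 6.27 in pre-CD8, 8.01 and 7.37 in pre-CD4, 6.07, 6.52 and 6.40 in CD24 DC and 6.94 and 6.57 in CD172a DC. The pre-CD8 arrays lay below every CDP and pre-CD4 array. It fell in pre-CD8 relative to CDP (difference -1.43 ± 0.24, limma adjusted p = 0.00324) and in CD172a DC relative to pre-CD4 (-0.93 ± 0.26, adjusted p = 0.0336). The difference of pre-CD8 from pre-CD4 was -1.26 ± 0.26 (adjusted p = 0.0523), and 0.0395 with the interquartile range as a covariate. The pre-CD8 call ended without pre-CD8 array 2 (adjusted p = 0.0583), and the CD172a DC call without pre-CD4 array 1 or either CD172a DC array (up to 0.345). The CD172a DC call ended too with quantile normalization, with equalized arrays, with the compared groups alone and with the interquartile range as a covariate (-0.96, adjusted p = 0.147). The ubiquitous form Cox6a1 had 11.41, 11.11 and 11.11 in CDP, 11.56 and 10.98 in pre-CD8, and 11.56 and 11.13 in pre-CD4, with overlapping groups.

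Markers of plasmacytoid DCs, which form from the same progenitors, ran beside Cox6a2 in some comparisons and not in others. Both were lower in pre-CD8 and in CD172a DC than in pre-CD4. In pre-CD8 minus CDP, where Cox6a2 fell, the marker median was 0.05. In pre-CD4 minus CDP, where Cox6a2 was not called, it was 1.42. The mean of 12 such markers was 5.94 to 6.08 in pre-CD8, 7.12 to 7.42 in pre-CD4, 5.95 to 6.35 in CDP, 5.64 to 5.78 in CD24 DC and 5.68 to 5.84 in CD172a DC. Of the 12, 6 rose and 1 fell in pre-CD4 relative to CDP, and none rose and 2 fell in pre-CD8. The part of such cells in the Cox6a2 values was not tested. Siglech, a defining marker of plasmacytoid DCs and among the 6 that rose, averaged 5.74 in pre-CD8, 8.29 in pre-CD4 and 6.17 in CDP. Dntt, the 1 that fell in pre-CD4 relative to CDP, differed by -4.64.

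Cox6b2, known as the testis form of subunit VIb, had 8.54, 7.62 and 8.05 in CDP, 8.28 and 7.03 in pre-CD8, 8.53 and 8.16 in pre-CD4, 6.34, 5.84 and 5.48 in CD24 DC, and 6.86 and 6.63 in CD172a DC. Both spleen DCs lay below every marrow array. It fell in CD24 DC relative to pre-CD8 (-1.77 ± 0.37, adjusted p = 0.00913) and in CD172a DC relative to pre-CD4 (-1.60 ± 0.40, adjusted p = 0.0178), and the first call ended without pre-CD8 array 1 (adjusted p = 0.211), the second without pre-CD4 array 1 or either CD172a DC array (up to 0.15). The second call ended too with quantile normalization and with the interquartile range as a covariate (-0.66, adjusted p = 0.413). The ubiquitous Cox6b1 differed by -0.53 ± 0.39 and -0.36 ± 0.42 in these comparisons (adjusted p = 0.544 and 0.624). The other restricted forms, Cox4i2, Cox7a1, Cox7b2, Cox8b, Cox8c and Ndufa4l2, had 0 calls in any of the 6 comparisons. Ndufa4l2 had group means of 4.41 in CDP, 4.63 in pre-CD8, 4.50 in pre-CD4, 4.57 in CD24 DC and 4.33 in CD172a DC. Among the 3 genes that encode the c subunit of the ATP synthase ring, Atp5g1, Atp5g2 and Atp5g3, none was called in the 6 comparisons, and Atp5g3 was called by the F test (adjusted p = 0.0193, and 0.104 with the interquartile range as a covariate).

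**Figure D4:**
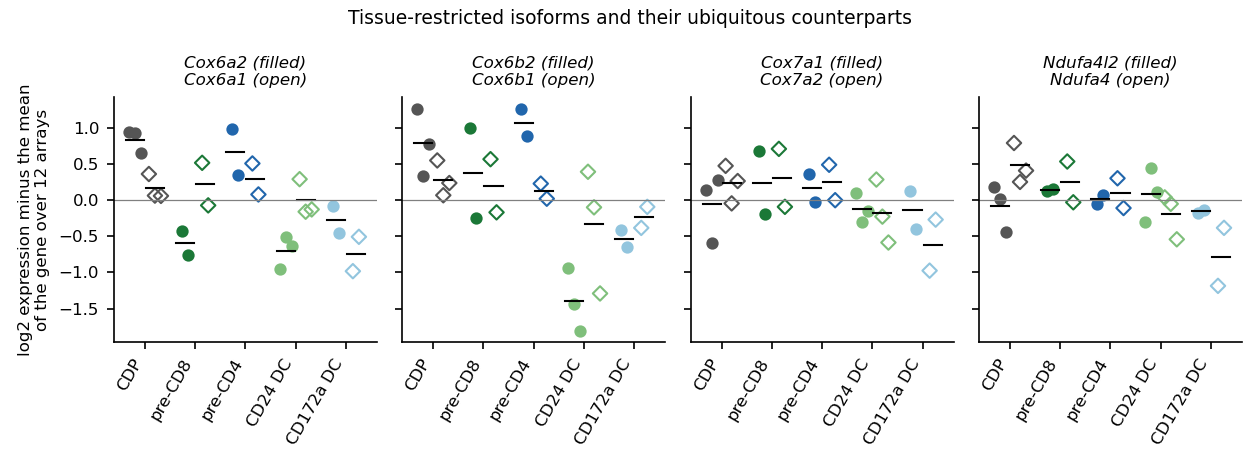
Log2 expression of 4 restricted isoforms (filled) and their ubiquitous counterparts (open), each centred on its own mean over 12 arrays, per array and population, with black bars as group means. Cox6a2 is low in pre-CD8 and both spleen DCs, Cox6b2 is low in both spleen DCs, and Cox7a1 and Ndufa4l2 show no called difference.

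Single arrays were checked within each population. On array 1 relative to array 2, 80 of the 93 members were higher in CDP (median gap 0.30), 84 in pre-CD8 (0.56), 81 in pre-CD4 (0.37) and 75 in CD24 DC (0.32). Among genes above the 40th percentile, 52.0%, 51.1%, 51.1% and 50.9% were higher on array 1 in these pairs. CD24 DC array 3 was the lowest of the 12 arrays for 35 members (37.6%), against 18.9% of genes above the 40th percentile. CDP array 1 was the highest for 30 members (32.3%), against 15.6% of those genes. The 2 CD172a DC arrays differed in another way, with a median gap of -0.002 but 12 members lower by more than 1 on array 1, which is 12.9%, against 2.27% of genes above the 40th percentile.

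The members low on CD172a DC array 1 came from several complexes. The gap of array 1 minus array 2 was -2.51 for Atp5h, -2.09 for Ndufa11 and Cox4i1, -1.95 for Ndufa2 and -1.93 for Atp5d, and the other 7 were Ndufb9, Ndufb5, Atp5e, Atp5g2, Ndufs8, Ndufaf5 and the pseudogene Uqcrh-ps1. Ndufa12 and Cox7b were higher by 1.07 and 1.00. On arrays 1 and 2 the second probe set of Ndufa12 had 8.67 and 7.82, but that of Cox7b had 4.67 and 4.90. Atp5e, the epsilon chain of ATP synthase, had 10.25 on CD172a DC array 1 and 11.61 on array 2, but its second probe set had 11.44 and 11.27. The second probe set of Atp5h had 5.04 on array 1 and 5.18 on array 2, and that of Atp5d had 6.26 and 6.63. Atp5g2 was low on array 1 by both of its probe sets. Ndufa11, Ndufa2 and Atp5h had the widest spread within populations of all members (residual SD 0.81, 0.78 and 0.77), and Cox5b, Atp5a1 and Ndufs4 the narrowest (0.12, 0.14 and 0.14).

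**Figure D5:**
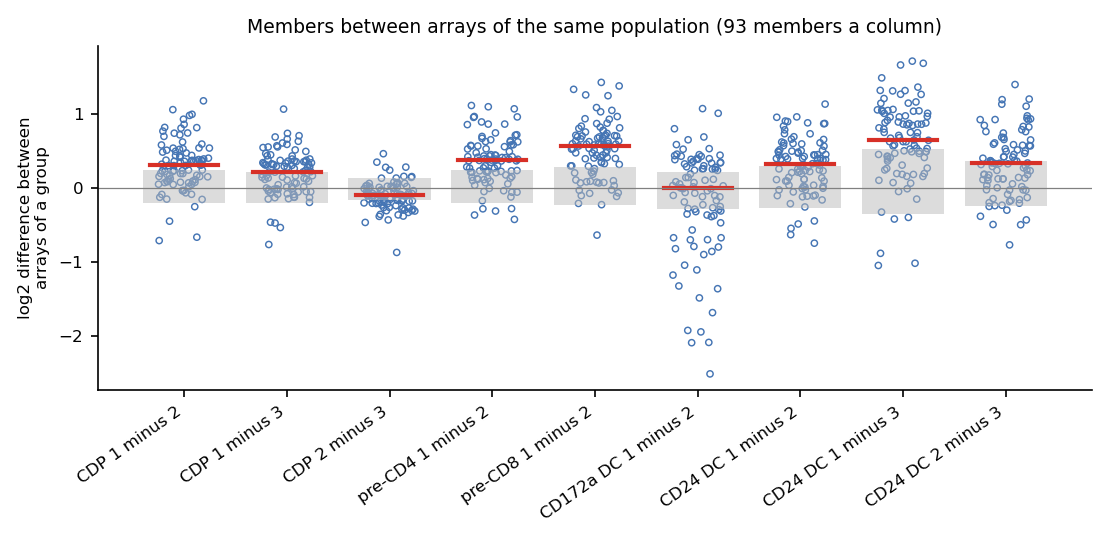
Log2 difference between arrays of the same population for the 93 members (points), with the member median in red and, in grey, the interquartile range of genes above the 40th percentile. Medians lie above 0 where array 1 comes first except in CD172a DC, where the median is near 0 and a tail of members reaches -2.51.

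Genes around the complexes were read from lists of 37 other respiratory chain and assembly genes, 21 electron feeders and carriers and 20 regulators of mitochondrial biogenesis. In CD172a DC relative to pre-CD4, 3, 4 and 3 genes of these lists fell and 0, 0 and 1 rose. The called shares were 8.11%, 19% and 20%, against 12.7% of all genes called in either direction and 8.02% called lower. Cyc1, the cytochrome c1 subunit of complex III, fell by 1.07 (SE 0.26, adjusted p = 0.0162). Etfa and Etfb, the electron transfer flavoprotein that feeds electrons from fatty acid oxidation, differed by -1.35 and -1.65 (adjusted p = 0.022 and 0.00402). Tfam, the packaging and transcription factor of mitochondrial DNA, had 4.87 and 4.40 in CD172a DC, against 5.52 and 5.88 in pre-CD4 (difference -1.06 ± 0.27, adjusted p = 0.0189). Ppargc1a, a coactivator known to drive mitochondrial biogenesis, went the other way, with 4.84 and 4.66 in CD172a DC, against 3.30 and 3.25 in pre-CD4 (difference 1.48 ± 0.20, adjusted p = 0.000334). It was lower in CD24 DC than in CD172a DC (-1.18 ± 0.19, adjusted p = 0.00173) and passed the lineage test (-1.34 ± 0.27, adjusted p = 0.0351). At commitment Lrpprc, which stabilises mitochondrial mRNAs, fell in pre-CD8 relative to CDP (-0.94) and in pre-CD4 relative to CDP (-1.22, with adjusted p = 0.0284 and 0.00631). Whether the calls of this paragraph held with the interquartile range as a covariate or without single arrays was not recorded.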

How the data were processed

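Per the labels' protocols, total RNA went through NuGEN Ovation Pico whole-transcriptome amplification and biotin labelling. The authors deposited 1 log2 value per probe set and array. How probes were background-corrected, summarized and normalized is not given in the sources used here. The deposited values (0.84 to 13.09) entered the fit as they stood. The files hold no detection calls, so background is unknown, and the number of arrays limits precision. Of 35145 probe sets, 23521 had 1 symbol, 1814 several and 9810 none; for 1082 genes with several, the one of highest mean was used (10 members).

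All 12 arrays entered 1 limma 3.58.1 fit (R 4.3.3; lmFit, eBayes) with 5 group means, residual degrees of freedom 7 and prior degrees of freedom 6.19. P-values were adjusted by Benjamini-Hochberg over 22180 genes, and called means under 0.05. The fit was tested on simulated data. The members, gene lists and rule for named genes were chosen with earlier results of these data known. Named were, per comparison, up to 6 called members in each direction with the largest differences, the 10 with the smallest F-test p, complex II, the isoform panel, the highest-mean member of each complex, the extremes of spread, and members whose call ended without 1 array. Beyond this rule, Sdhb and other uncalled differences, Uqcrc1, Ndufaf6 and the genes low on CD172a DC array 1 were named after their values were seen. Alternatives were leaving out each array, quantile normalization, equalized arrays, interquartile range as covariate, a replicate block, mean-variance trend, array weights, probe-set means, omission of dim genes and fits of the compared groups only.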

Additional observations from a re-analysis of the deposited data

How the results depend on the processing

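Counts of called members changed with single arrays, scale and the fit. The share of all genes called under each setting is not given here. The counts therefore do not show whether members moved more than other genes did. Leaving out each array in turn gave 0 to 3 called members for pre-CD8 minus CDP, 0 for pre-CD4 minus CDP, 0 to 1 for pre-CD8 minus pre-CD4, 1 to 12 for CD24 DC minus CD172a DC, 0 to 3 for CD24 DC minus pre-CD8, 2 to 19 for CD172a DC minus pre-CD4, 0 to 3 for the lineage by stage interaction and 12 to 32 across the 5 populations. Quantile normalization gave 1 for CD24 DC minus pre-CD8, 1 for the interaction and 15 across populations. Equalizing array median and interquartile range gave 1 and 1 for the first pair of these. The interquartile range as a covariate gave 2 for pre-CD8 minus pre-CD4, 11 for CD24 DC minus CD172a DC, 2 for CD172a DC minus pre-CD4 and 10 across populations. Under it Sdhb in CD172a DC minus pre-CD4 turned to 0.03 (0.028), the 1 named difference that changed sign. The mean-variance trend gave 2 for pre-CD8 minus CDP, 1 for pre-CD8 minus pre-CD4 and 1 for the interaction. Array weights gave 4, 2, 1, 14, 5 and 24 for the 6 comparisons in the order above, 1 for the interaction and 44 across populations. Without dim genes the counts were 4 for pre-CD8 minus CDP, 1 for pre-CD8 minus pre-CD4, 8 for CD24 DC minus CD172a DC and 2 for the interaction, with fewer genes tested. Fits of the compared groups alone gave 3 for pre-CD8 minus CDP, 2 for CD24 DC minus CD172a DC and 1 for CD24 DC minus pre-CD8, with fewer arrays. The replicate block, which treats equal array numbers as pairs, gave 1 for pre-CD4 minus CDP, 10 for CD24 DC minus CD172a DC, 19 for CD172a DC minus pre-CD4 and 33 across populations. The labels do not say that equal numbers mark a shared sort, and deviations of equal-numbered arrays correlated at 0.10 to 0.42 over all genes outside CD172a DC and at -0.16 to 0.024 with it. Other settings were chosen after seeing the data. Without the 5 arrays numbered 1, counts were 0 for CD24 DC minus CD172a DC, 1 for CD24 DC minus pre-CD8, 1 for CD172a DC minus pre-CD4 and 9 across populations. Without CD172a DC 1 and CD24 DC 3 they were 1, 0, 4 and 12. Quantile normalization without CD172a DC 1 gave 1 for CD24 DC minus CD172a DC, 2 for CD172a DC minus pre-CD4 and 12 across populations, and the block with equalized arrays gave 1 for the interaction. The cause of these changes was not tested, also where fewer genes or arrays are named. Of the complex and member medians, 1310 of 1392 alternative values moved by less than the spread between arrays. Many of these could not move, so the count does not measure robustness. The mean-variance trend and fits of the compared groups alone leave group means unchanged, as does leaving out an array outside the comparison. With 2 or 3 arrays a population and no detection calls, low values of the restricted isoforms need not be detected transcripts.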
